A study of Mus musculus with 4 samples.

Results

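The genes described here are 48 listed genes of the type I interferon response: receptors, signalling proteins, sensors of foreign nucleic acid and antiviral effectors. They were found by their symbol among array probe sets annotated with 1 gene. In all, 76 of 45037 probe sets matched, covering 46 of the 48 genes and of 18193 genes on the array. The probe set of Isg15 was annotated together with another symbol and Ifi44 matched none, so both were not analysed here. RNA came from CD4 and CD8 double positive thymocytes of 4 mice with a mouse number each, 1 array per mouse. All 4 mice were Ikf/f, carrying an Ikaros gene that Cre recombinase can delete; 2 were Ikf/f CD4-Cre- (Cre-negative, or without Cre) and 2 were Ikf/f CD4-Cre+ (Cre-positive, or with Cre). Pairs of values are always given in the order sample 1, then sample 2. The CD4-Cre transgene produces Cre in cells of the T lineage from about the stage at which CD4 appears. No Cre-positive mice without the Ikf/f allele were included, so the effects of Cre and of Ikaros loss cannot be told apart. Neither the age of the mice nor the way the cells were purified is given in the sources used here.

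Type I interferons bind a receptor made of Ifnar1 and Ifnar2. Receptor-bound Jak kinases then activate Stat proteins, and Stat2 joins Irf9 in a complex that binds interferon-stimulated response elements in the promoters of its target genes. The products of these targets detect viral RNA, degrade it or block its translation, and some, such as Usp18, restrain the receptor. The pathway is best known from infection, but thymocytes are also exposed to interferon made within the thymus.

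The response element is shown first because it is the sequence shared by many promoters of this family. Its core was searched as 2 copies of GAAA with any 2 bases between them, on either strand, overlapping matches included, in the 250 bases before each start site in RefSeq (build GRCm38.p6). A window was given for 36 of the 46 genes, and 9 of these 36 (25.0%) held the core, against 3.03% of the tested genes with a window. Among the members called higher it was found in 2 of 7 with a window, and among tested members that did not pass, in 6 of 25 (24%). The windows of these 2 genes, and that of Ifit3, added after the values were seen because it is a relative of Ifit1 that did not pass, are printed 5′ to 3′ on the strand of the gene, with the core in capitals. They lie at chr19:34640639-34640888 (plus strand) for Ifit1, chr5:120907526-120907775 (minus strand) for Oas1a and chr19:34583279-34583528 (plus strand) for Ifit3.
Ifit1: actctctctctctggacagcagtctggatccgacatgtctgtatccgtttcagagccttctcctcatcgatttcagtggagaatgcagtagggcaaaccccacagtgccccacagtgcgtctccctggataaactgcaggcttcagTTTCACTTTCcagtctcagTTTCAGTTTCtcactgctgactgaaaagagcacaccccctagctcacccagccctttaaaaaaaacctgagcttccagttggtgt
Oas1a: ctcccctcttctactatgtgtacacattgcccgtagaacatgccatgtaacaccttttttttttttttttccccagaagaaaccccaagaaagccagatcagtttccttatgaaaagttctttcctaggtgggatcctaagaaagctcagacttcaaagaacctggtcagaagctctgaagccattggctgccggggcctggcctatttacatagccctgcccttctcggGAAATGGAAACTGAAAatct
Ifit3: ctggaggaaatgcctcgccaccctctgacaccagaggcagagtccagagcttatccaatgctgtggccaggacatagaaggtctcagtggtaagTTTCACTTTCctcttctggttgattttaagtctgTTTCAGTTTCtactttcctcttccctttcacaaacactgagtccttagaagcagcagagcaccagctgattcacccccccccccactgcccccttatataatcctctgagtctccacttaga
The Ifit1 and Ifit3 windows each held 2 cores. Those of Ifit1 ended 94 and 75 bases before the start and those of Ifit3 146 and 112 bases before it. The 2 cores of Oas1a overlapped each other, and the nearer ended 4 bases before the start. The core of the element bound by Stat dimers, TTCNNNGAA, which reads the same on both strands, was in 9 of the 36 member windows (25.0%) and in 7.28% of the tested genes with a window. These matches are a description of the letters and not a measure of binding.

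A set of interferon-induced effectors and RNA sensors rose in the Cre-positive mice, among them Rtp4, Ifitm3 and Usp18, which were higher by 2.71, 2.50 and 2.49 on the log2 scale, and Ifit1, whose Cre-negative signal lay under the filter described next. The Cre-negative mean of Ifitm3, 4.88, lay just above that filter. None of the 4 receptors passed the test, nor did the signalling factors Stat2 and Irf3. Values are log2 signals after robust multi-array averaging (RMA), 1 brightest probe set per gene, and differences are Cre-positive minus Cre-negative. Of the 46 genes, 41 lay above a filter on low signal (4.76 on the log2 scale) and were tested among 11639 genes in limma with Benjamini-Hochberg adjustment, with a call made when the adjusted p was under 0.05. By this test 12 of the 41 were called higher and 0 lower, where 1.11% of all tested genes rose and 0.266% fell; 33 of the 41 had an unadjusted p under 0.05, against 20.6% of all tested genes. The 12 include Xaf1, which was called through 1 of 2 probe sets that moved in opposite directions, and Ifit1, which passed the filter only through its Cre-positive signal; without Xaf1 the count is 11, and without both it is 10. Both Cre-positive arrays lay above both Cre-negative arrays for 35 of the 41, against 34.2% of all tested genes, and below them for 4, against 18.7%. The median difference was 0.65 over the 41 members and 0.06 over all tested genes. Over all 46 members, with no filter, it was 0.62.

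**Figure D1:**
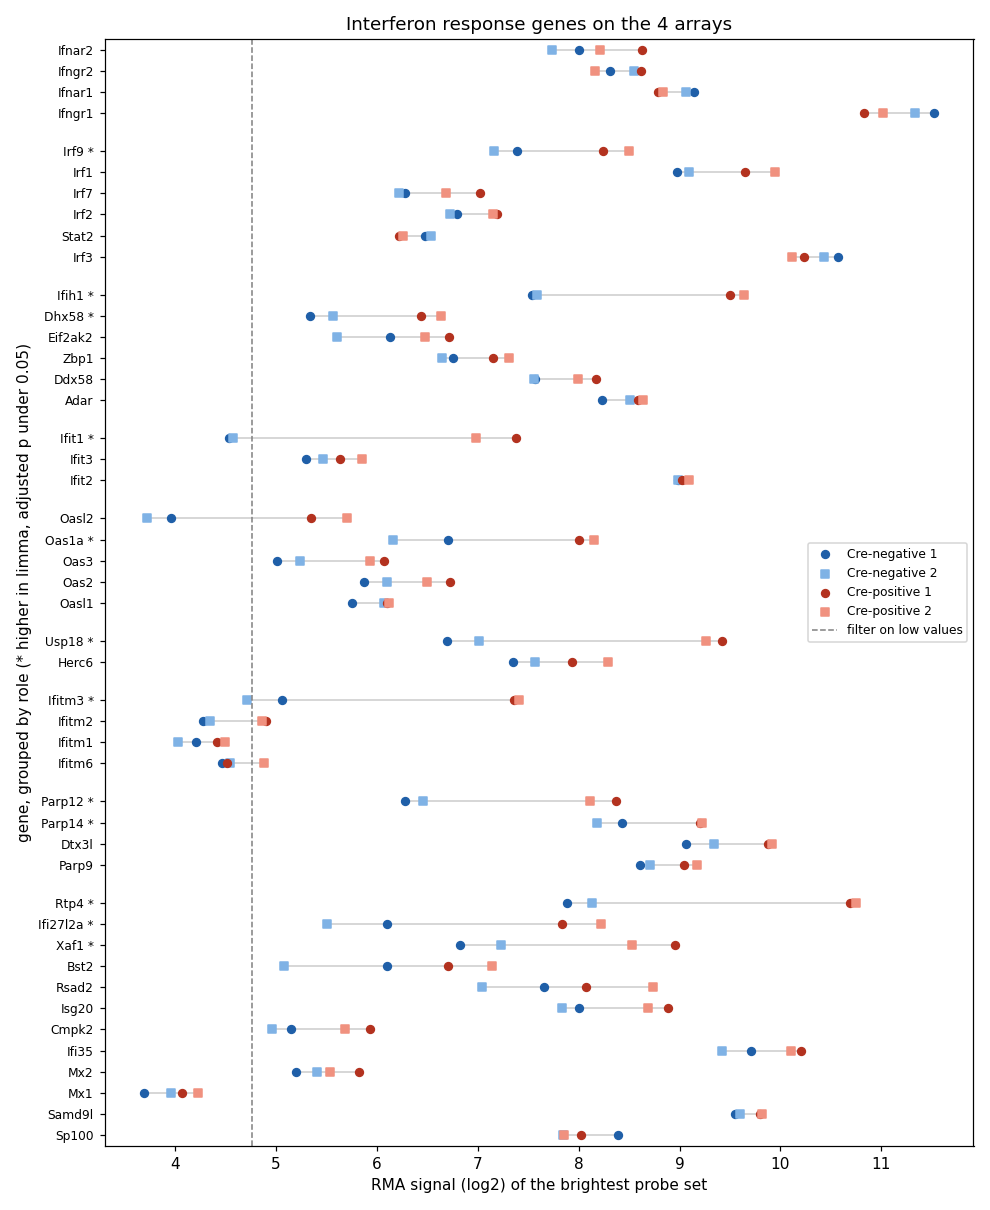
RMA log2 signals (horizontal axis) of the 46 measured interferon response genes, grouped by role (vertical axis), with 1 point per array; blue points are the 2 Cre-negative and red points the 2 Cre-positive mice. Genes marked with a star were called higher in limma, Xaf1 through 1 of 2 opposed probe sets; for these 12 both red points lie to the right of both blue points, whereas for Ifngr1, Ifnar1, Irf3 and Stat2 they lie to the left.

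The number of calls depended on every array. It fell with any single array left out, among the members and over all tested genes alike. The median difference of the tested members then ranged from 0.61 to 0.73. All 12 differences stayed above 0 each time, which was fixed in advance because the groups did not overlap for any of the 12. Centring each array on the median of the tested genes, an alternative chosen after seeing the data, moved the median difference of all genes to −0.07 and left 9 of the 12; Irf9, Dhx58 and Parp14 then had adjusted p-values in limma between 0.0577 and 0.0635. Under that scaling 61.0% of all calls were higher, against 80.6% as deposited.

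The targeted gene and the cell type were checked on the same arrays. Ikzf1, which encodes Ikaros, read 12.40 and 12.08 without Cre against 10.80 and 10.62 with it, a fall of 1.53 ± 0.16 (difference ± SE, n = 2 per group; limma adjusted p = 0.024). With the mean of all its probe sets it differed by −0.88 (adjusted p = 0.037). Of 8 measured markers of double positive thymocytes, including Cd4, Cd8a and Rag1, 0 passed in limma (4 had an unadjusted p under 0.05), and all 8 read above 9 on every array. Both Cre-positive arrays lay below both Cre-negative arrays for 6 of the 8, against 18.7% of all tested genes. The median difference was −0.21, with Cd1d1 at −0.66, Rag2 at −0.41, Cd8a at −0.30 and Cd8b1 at −0.29. Pearson's r across probe sets was 0.992 and 0.994 within the groups and 0.984 to 0.987 between them.

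Among the receptors no gene passed, and the 4 did not move one way. Ifnar1, a chain of the type I receptor, read 9.14 and 9.06 without Cre and 8.79 and 8.84 with Cre, and Ifngr1, the ligand-binding chain of the interferon gamma receptor, read 11.52 and 11.34 against 10.83 and 11.02. For both genes the groups did not overlap and the Cre-positive arrays were lower. Their differences were −0.29 (95% interval −0.57 to −0.01; limma adjusted p = 0.234) and −0.51 (−0.84 to −0.17; adjusted p = 0.129). The other Ifnar1 probe set differed by −0.76. Ifnar2, the other type I chain, differed by 0.55 in its brightest probe set (adjusted p = 0.183), but its 2 other probe sets differed by −0.23 and −0.02. Ifngr2 differed by −0.04, with arrays that overlapped between the groups.

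Of the 6 signalling and transcription factors, Irf9 rose. Irf9, the DNA-binding partner of the Stat proteins, read 7.39 and 7.16 without Cre and 8.24 and 8.50 with Cre. The groups did not overlap, and the rise was 1.10 ± 0.15 (difference ± SE, n = 2 per group; limma adjusted p = 0.0443), a 2.14-fold change in signal. Its partner Stat2 read 6.47 and 6.54 against 6.22 and 6.26, a difference of −0.27 (limma adjusted p = 0.259). The 2 genes of this complex thus differed in opposite directions and only Irf9 passed. Irf1, an activator induced by interferons, differed by 0.77 (adjusted p = 0.075), Irf7, which amplifies interferon production, by 0.61 (adjusted p = 0.116), and Irf2, which counters Irf1, by 0.41 (adjusted p = 0.135). Irf3, which acts early after virus detection and is activated by phosphorylation, differed by −0.33 (adjusted p = 0.22), and all 4 of its probe sets differed downwards, from −0.85 to −0.31.

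Among the 6 nucleic acid sensors, all had both Cre-positive arrays above both Cre-negative arrays, and 2 rose. Over all tested genes 34.2% were separated in this way and 1.11% rose. Ifih1, the sensor of long double-stranded RNA also called MDA5, read 7.54 and 7.59 without Cre and 9.50 and 9.64 with Cre. The arrays of a group lay close together, and the rise was 2.01 ± 0.12 (limma adjusted p = 0.00715), a 4.02-fold change. Dhx58, the related helicase LGP2, read 5.34 and 5.57 against 6.43 and 6.63 and rose by 1.08 ± 0.14 (adjusted p = 0.0414). Its 2 dimmer probe sets lay below the filter and differed by 0.16 and −0.16. Ddx58, the third helicase of this family, known as RIG-I, differed by 0.52 (adjusted p = 0.105). One dimmer Ddx58 probe set differed by 0.51 and the other by −0.30. Eif2ak2, the kinase PKR that halts translation, differed by 0.72 and Zbp1, a sensor of Z-form nucleic acid, by 0.53 (adjusted p = 0.139 and 0.106). Adar, which edits double-stranded RNA, differed by 0.25 (adjusted p = 0.384), with other probe sets at 0.34 and −0.19.

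The Ifit genes, whose proteins bind viral RNA and sit side by side in the genome, differed widely in size of response. Ifit1 read 4.53 and 4.57 without Cre and 7.38 and 6.98 with Cre. It rose by 2.63 ± 0.16 (limma adjusted p = 0.00715), and its Cre-negative mean of 4.55 lay under the filter, so that it was tested only because of its Cre-positive signal and the size of its rise is uncertain. Ifit3 read 5.30 and 5.46 against 5.63 and 5.86, a difference of 0.36 (95% interval 0.02 to 0.71; adjusted p = 0.22), although its promoter window held as many response element cores as that of Ifit1. Ifit2 read 8.99 on both Cre-negative arrays and 9.02 and 9.10 on the Cre-positive arrays. Its difference of 0.07 (−0.21 to 0.35) was −0.06 with arrays centred on the median of the tested genes.

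Of the Oas family, which makes the 2′-5′ oligoadenylates that activate an RNA-degrading enzyme, Oas1a rose. Oas1a read 6.71 and 6.16 without Cre and 8.01 and 8.15 with Cre, a rise of 1.65 ± 0.20 (limma adjusted p = 0.0358). Oas3 read 5.01 and 5.24 against 6.07 and 5.93 and lay just outside the threshold, with a difference of 0.88 (adjusted p = 0.054). Oas2 differed by 0.63 (adjusted p = 0.105) and Oasl1, an Oas-like protein, by 0.19 (adjusted p = 0.513). Oasl2 was below the filter in mean signal, at 3.96 and 3.72 without Cre and 5.34 and 5.71 with Cre. Tested without the filter, it rose by 1.69 (limma adjusted p = 0.0188), a size that is uncertain because it starts from a signal under the filter. All 5 genes had both Cre-positive arrays above both Cre-negative arrays, as did 34.2% of all tested genes. That share leaves out Oasl2, which lay below the filter.

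In the Isg15 system, which attaches a ubiquitin-like protein to targets, Usp18, the protease that removes it and also blocks the type I receptor, read 6.70 and 7.02 without Cre and 9.42 and 9.27 with Cre. It rose by 2.49 ± 0.15 (limma adjusted p = 0.00715). Herc6, the mouse ligase that attaches Isg15, differed by 0.65 (adjusted p = 0.122), and its 3 dimmer probe sets differed by 0.34, 0.25 and 0.03.

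The Ifitm proteins block virus entry at membranes, and 1 of the 4 genes was above the filter. Ifitm3 read 5.06 and 4.71 without Cre and 7.36 and 7.40 with Cre, a rise of 2.50 ± 0.15 (limma adjusted p = 0.00715). Its Cre-negative mean of 4.88 lay just above the filter and Cre-negative sample 2 lay under it, so the size is uncertain. Ifitm1 and Ifitm2 stayed between 4.03 and 4.90 on all arrays, with differences of 0.34 and 0.57, and without the filter neither passed (adjusted p = 0.25 and 0.0785). Ifitm6 differed by 0.19, with arrays that overlapped between the groups.

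All 4 genes of the Parp group were higher on both Cre-positive arrays, against 34.2% of all tested genes, and 2 rose, against 1.11%. Parp12, an ADP-ribosyltransferase with antiviral activity, read 6.28 and 6.46 without Cre and 8.37 and 8.11 with Cre and rose by 1.87 ± 0.15 (limma adjusted p = 0.0153). Parp14, a larger enzyme of the same family, read 8.43 and 8.18 against 9.20 and 9.22 and rose by 0.90 ± 0.13 (adjusted p = 0.0495). Parp14 was the called member closest to the threshold and no longer passed with the mean of its 2 probe sets (0.57; adjusted p = 0.0721). Parp9 and Dtx3l, whose proteins form a complex, differed by 0.45 and 0.69 (adjusted p = 0.129 and 0.0795). The second probe set of Dtx3l read 8.32 and 8.27 against 9.49 and 9.83, a larger difference of 1.37 (adjusted p = 0.037 with every probe set tested as its own unit, a fit in which 0.639% of all tested probe sets rose).

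Of the remaining effectors, 3 were called. Rtp4, an interferon-induced chaperone of receptors, read 7.88 and 8.13 without Cre and 10.69 and 10.75 with Cre. It rose by 2.71 ± 0.13 (limma adjusted p = 0.00364), a 6.56-fold change. Its other probe set, below the filter, differed by 0.46. Ifi27l2a, a small interferon-induced membrane protein, read 6.10 and 5.51 against 7.84 and 8.22 and rose by 2.23 ± 0.24 (adjusted p = 0.0248).

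Xaf1, an interferon-induced protein linked to cell death, gave 2 opposite answers. Its brightest probe set read 6.82 and 7.22 without Cre and 8.96 and 8.53 with Cre, a difference of 1.72 ± 0.21 (limma adjusted p = 0.0343). Its other probe set read 8.11 and 7.99 against 5.73 and 5.39, a difference of −2.49, and fell with every probe set tested as its own unit (adjusted p = 0.0135). In both probe sets the groups were far apart and the arrays of a group close together. With the mean of both the difference was −0.39 (adjusted p = 0.238), so these data give no single direction for Xaf1. The probe set taken as the brightest over all 4 arrays was the dimmer one in the Cre-negative mice, with means of 7.02 and 8.05.

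Of the other 9 effectors, 8 were tested and did not pass. Isg20, an exonuclease, read 8.01 and 7.83 without Cre and 8.89 and 8.69 with Cre, a difference of 0.87 (limma adjusted p = 0.054). Bst2, the tether that holds virus particles at the cell surface, read 6.10 and 5.07 against 6.71 and 7.14. Its difference of 1.34 (adjusted p = 0.125) was larger than those of 3 called members, but its Cre-negative arrays differed by 1.02, the widest gap among tested members. Rsad2, or viperin, differed by 1.05 (adjusted p = 0.135), and the nucleotide kinase gene Cmpk2, its neighbour in the genome, by 0.75 (adjusted p = 0.0752). Ifi35, a signalling modulator, differed by 0.59, with its 2 other probe sets at 0.39 and 0.32. The dynamin-like GTPase gene Mx2 differed by 0.38 and Samd9l, a translation inhibitor, by 0.23. Mx1 stayed below the filter, between 3.69 and 4.23, and Sp100, a nuclear body protein, differed by −0.18 with overlapping arrays.

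**Figure D2:**
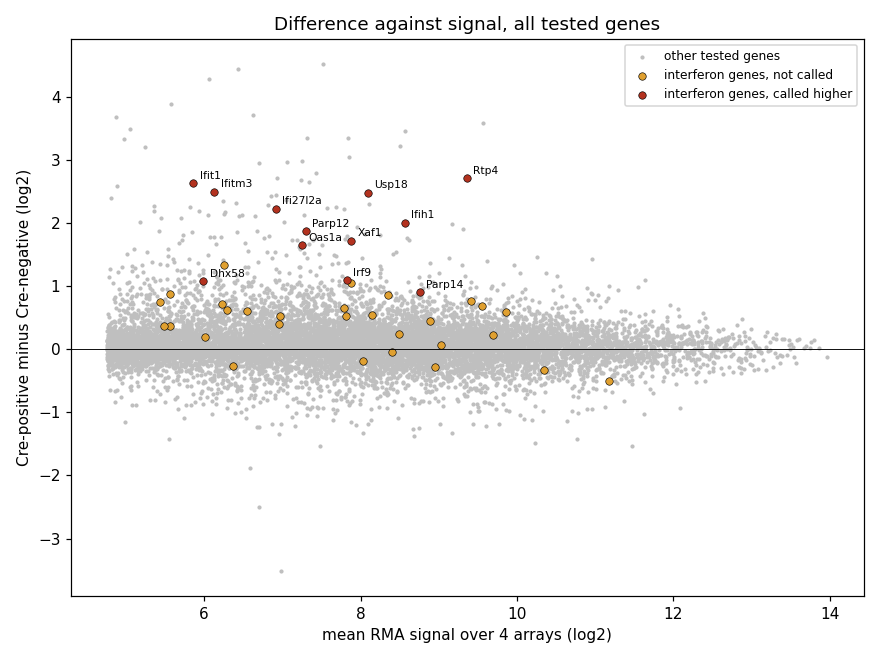
Difference between Cre-positive and Cre-negative mice (log2, vertical axis) against the mean signal over 4 arrays (log2, horizontal axis) for the 11639 tested genes in grey; the 12 interferon genes called higher are red and the 29 that did not pass are orange. The red points span differences of 0.90 to 2.71, and most orange points lie above 0.

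The called members did not share a starting level: their Cre-negative means ran from 4.55 (Ifit1) to 8.30 (Parp14). The median gap between the arrays of a group was 0.22 for the Cre-negative and 0.18 for the Cre-positive mice over the tested members, against 0.16 and 0.13 over all tested genes. Neither Cre-positive mouse was consistently the higher one, since sample 1 exceeded sample 2 for 18 of 41 members.

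Several genes had more than 1 probe set. Of the 19 such members, the probe sets of 6 differed in sign, namely Xaf1, Dhx58, Ifnar2, Ddx58, Adar and Sp100. Of the 30 probe sets that were not the brightest, 23 lay above the filter. Of these, 13 differed upwards, as did 7098 of the 11639 tested genes. With the mean of all probe sets per gene, 12 members were again called higher, 9 of them shared with the 12 named above, and the member median was 0.46.

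**Figure D3:**
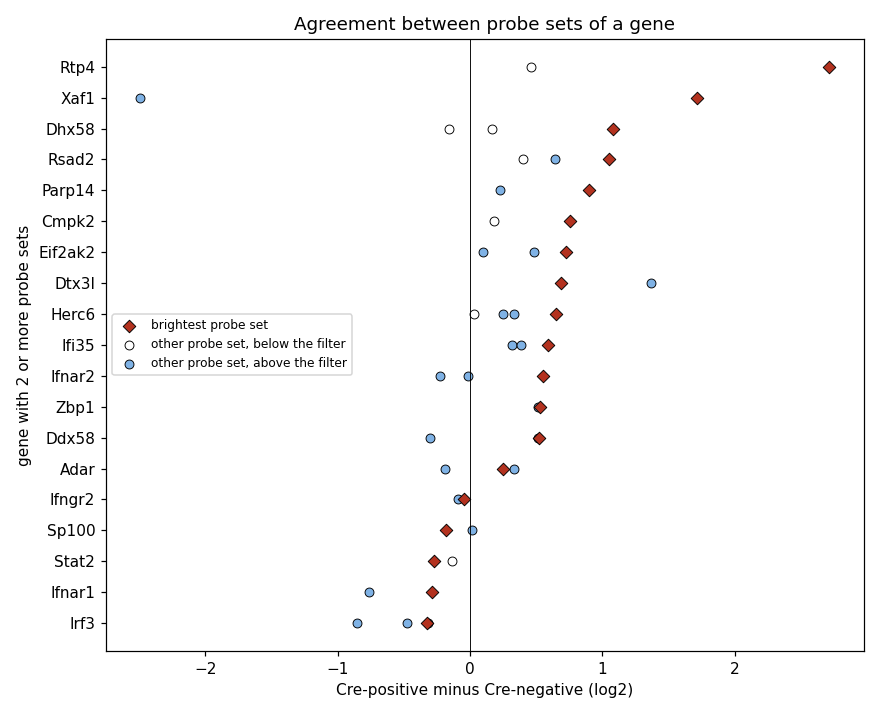
Differences (log2, horizontal axis) of every probe set of the 19 interferon genes with 2 or more (vertical axis); red diamonds are the brightest probe sets, blue circles others above the filter and open circles others below it. The second Xaf1 probe set stands apart at −2.49.

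Genes that act before, beside or after these members in the pathway were taken as 6 further lists. Of 61 tested genes in these lists, 2 rose and 0 fell in limma, where 1.11% of all tested genes rose and 0.266% fell. Both were interferon-induced effectors, among 24 tested: Slfn1, a Schlafen protein that limits T cell growth, read 4.49 and 4.42 against 5.67 and 5.73 and rose by 1.25 (adjusted p = 0.0181), and the helicase gene Ddx60 read 4.66 and 4.47 against 5.56 and 5.87 and rose by 1.16 (adjusted p = 0.0418). The Cre-negative means of both genes, 4.45 and 4.56, lay under the filter, so both were tested only because of their Cre-positive signal and the sizes are uncertain. Leaving out any single array left 0 of the 61. In the same list Lgals3bp, a secreted galectin-binding protein, differed by 1.21 and the immunoproteasome subunit gene Psmb9 by 0.98 (adjusted p = 0.0619 and 0.0667). The list median was 0.26.

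The interferons themselves gave little signal. Of 9 measured type I ligand genes, 8 lay below the filter, with values from 2.92 to 4.93. The ninth, Ifnz, differed by 0.18 (limma adjusted p = 0.57). Ifng, the type II interferon, was also below the filter. Of 14 tested genes of the pathway that induces interferon, 0 passed in limma (2 had an unadjusted p under 0.05). These 2 were Cgas, the cytosolic DNA sensor, at 0.73 and its adaptor Sting1 at 0.66, with adjusted p-values of 0.121 and 0.12, while Mavs, the adaptor of the RNA sensors, differed by 0.06.

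The kinases and Stat proteins that relay the signal did not pass. Of 8 tested, 0 passed in limma (3 had an unadjusted p under 0.05). These 3 were Stat4 at −0.53, Stat5a at 0.43 and Stat3 at 0.29, while Jak1 differed by −0.27 and Tyk2 by −0.06. Of 11 negative regulators 0 passed in limma (2 had an unadjusted p under 0.05). These 2 were Ptpn2, a phosphatase of Jak and Stat proteins, at 0.47 and Socs3 at 0.51. Socs1, the main inducible inhibitor of Jak kinases, differed by −0.22, with arrays that overlapped between the groups. Of 3 tested genes of interferon gamma and its chemokines 0 passed (1 had an unadjusted p under 0.05), with the chemokine gene Ccl5 at 0.62.

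**Figure D4:**
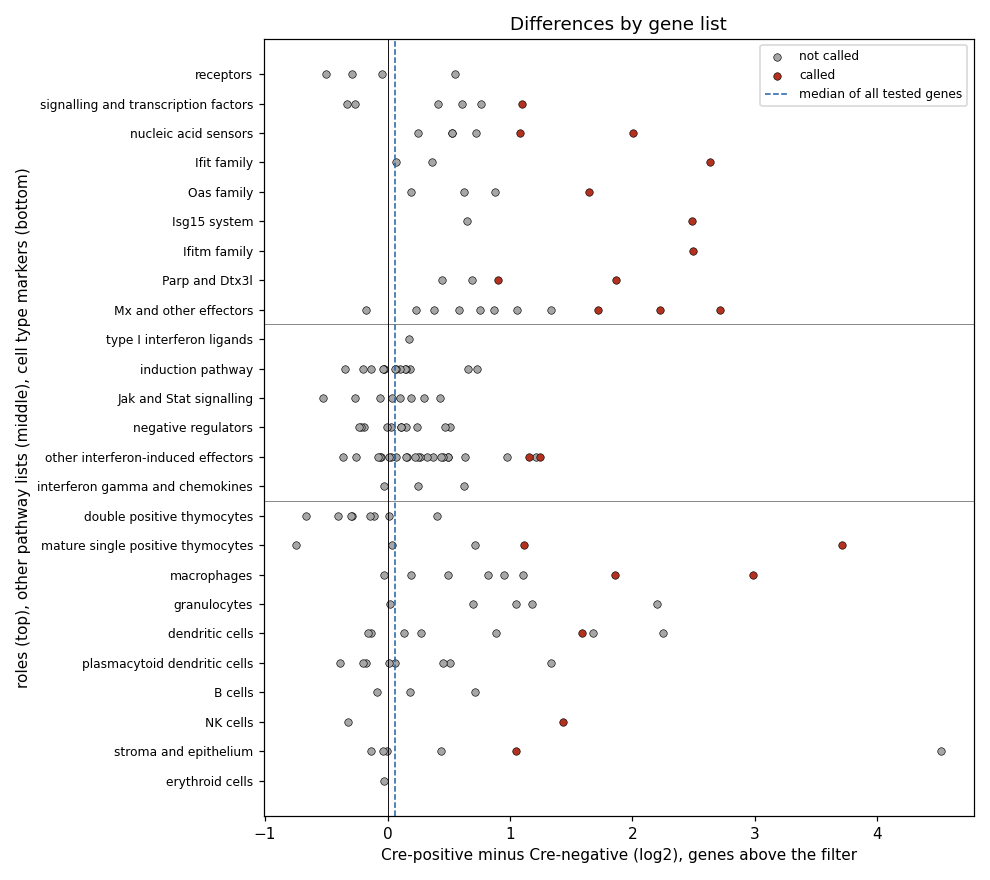
Differences (log2, horizontal axis) of each gene above the filter, by list (vertical axis): roles of the interferon genes at the top, other pathway lists in the middle and cell type markers at the bottom. Red points passed in limma and the dashed line marks the median of all tested genes, 0.06; 12 of 41 points are red in the top block and 2 of 61 in the middle block.

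Markers of other cell types moved with the same groups, and many cells of the immune system express interferon response genes. In bulk RNA a change in the number of cells of a type and a change in RNA per cell cannot be told apart. Of 12 measured macrophage markers 8 were tested and 2 rose, the protease gene Ctss (2.98) and the lysozyme gene Lyz2 (1.85). Of the 8, 5 had an unadjusted p under 0.05 in limma, against 20.6% of all tested genes. Both Cre-positive arrays lay above both Cre-negative arrays for 6, against 34.2% of all tested genes. The complement genes C1qa, C1qc and C1qb differed by 1.11, 0.95 and 0.49 and the adaptor gene Tyrobp by 0.82. The Cre-negative means of C1qc and C1qb, 4.58 and 4.71, lay under the filter. Both were thus tested only because of their Cre-positive signal, and the sizes are uncertain. The summed linear signal of the 12 macrophage markers was 371 to 386 in the Cre-negative and 959 to 989 in the Cre-positive samples. The defining markers Adgre1 and Csf1r differed by −0.03 and 0.19, and Cd68, Mertk, Itgam and Fcgr3 lay below the filter. Of 9 dendritic cell markers 8 were tested and H2-Ab1, an MHC class II chain, rose (1.58). Of the 8, 4 had an unadjusted p under 0.05 in limma, against 20.6% of all tested genes. Both Cre-positive arrays were the higher ones for 6, against 34.2% of all tested genes. The other MHC class II genes H2-Aa and H2-Eb1 differed by 2.25 and 1.68 (limma adjusted p = 0.054 and 0.0531) and Cd74 by 0.89. The sum of the 9 dendritic cell markers was 373 to 502 against 1083 to 1100, with Itgax at 0.27, Flt3 at −0.16 and Xcr1 below the filter. Itgax, 1 of the 6, had a Cre-negative mean of 4.65, under the filter. The part of these cells in the interferon differences was not tested.

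Plasmacytoid dendritic cells are the main producers of type I interferon in infection. Of 8 tested markers, which include Bst2, 0 passed in limma (3 had an unadjusted p under 0.05). These 3 were Bst2 at 1.34, Klk1 at 0.51 and Tcf4 at 0.45. Both Cre-positive arrays lay above both Cre-negative arrays for these 3 and below them for 2 of the 8. Over all tested genes the shares were 34.2% and 18.7%. Siglech, a defining marker, differed by 0.01, and the sum was 11564 to 11915 in the Cre-negative and 10393 to 10646 in the Cre-positive samples, most of it from Ccr9 and Ly6d, which the thymocytes express. Of 7 granulocyte markers 5 were tested and 0 passed (0 had an unadjusted p under 0.05). Their sum was 173 to 185 in the Cre-negative samples, 177 in Cre-positive sample 1 and 949 in Cre-positive sample 2. Without Cre-positive sample 2 the median difference was 0.73 over the tested members and 0.06 over all tested genes. The part of plasmacytoid dendritic cells and granulocytes in the interferon differences was not tested.

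Mature single positive thymocytes, the next stage, were checked by 6 markers, of which 5 were tested. Gimap4 (3.71) and Il7r (1.12) rose, from Cre-negative means of 4.77 and 4.72 at or under the filter, so the sizes are uncertain; 4 of the 5 had an unadjusted p under 0.05. Klf2, a regulator of thymocyte exit, differed by 0.71 and the activation marker gene Cd69 by −0.75, whereas the exit and homing receptor gene Ccr7 differed by 0.04 and S1pr1 lay below the filter. Their sum, which combines the lower Cd69 with the higher Gimap4, was 931 to 1059 in the Cre-negative and 1022 to 1092 in the Cre-positive samples. Of 6 NK cell markers 2 were tested and Gzma rose (1.43), with Ncr1 and Eomes below the filter, and the sum, mostly from Gzma, was 1287 to 1378 against 2866 to 3993. Of 9 stromal and epithelial markers 6 were tested and Pdgfrb rose (1.05); the sum was 362 to 370 in the Cre-negative samples and 3359 and 659 in Cre-positive samples 1 and 2, and Col1a2 made up 89.1% and 39.0% of it with Cre against 9.98% and 10.9% without. Of 5 B cell markers 3 were tested, and of 3 erythroid markers 1 was tested. Of these 0 passed in limma (1 B cell and 0 erythroid markers with an unadjusted p under 0.05). That B cell marker, Ms4a1, had a Cre-negative mean of 4.56, under the filter. B cell sums were 418 to 459 against 391 to 497, and erythroid sums were 67.5 to 80.9 against 67.0 to 84.2. The part of these cells in the interferon differences was not tested either.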

How the data were processed

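Total RNA of 4 mice was labelled in a 2-cycle assay, per the labels' protocols, and hybridised to Affymetrix mouse arrays. The deposited values are log2 signals made by the authors with RMA, per the submitters' processing notes; the version and the log base are not stated, and base 2 was taken because RMA returns it. Without scanner files, background correction could not be varied. Arrays give no counts, so precision is limited by 2 arrays per group.

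Symbols were taken from the platform annotation through Entrez identifiers (34741 of 34945 probe sets with 1 symbol matched RefSeq). Each gene took its brightest probe set by mean, and 11639 genes at or above the 40th percentile were tested with limma 3.58.1 in R 4.3.3 (eBayes, two-sided, Benjamini-Hochberg adjustment over all tested genes; 2 residual and 3.59 prior degrees of freedom). With 2 arrays a group, the smallest p of an exact permutation test is 0.333. The procedure was tested on simulated data. Members and lists were chosen with earlier results of these data known. The text names all members by role, called pathway genes and up to 4 per list with the smallest p, Ikzf1, and some further markers and pathway genes chosen for their role. Promoters were printed for called members with the response element core. Alternatives varied the array set, filter, probe set, scaling, variance prior and weights, or blocked on sample number. Figures were drawn with matplotlib 3.10.9.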

Additional observations from a re-analysis of the deposited data

How the results depend on the processing

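Of the 12 members called higher, all kept their sign with any single array left out, while the number of members called ranged from 0 to 7, that of all genes called from 3 to 99, that of other pathway genes called was 0, the member median ranged from 0.61 to 0.73, and Ikzf1 differed by −1.69 to −1.37 and did not pass. The loss of calls came with fewer arrays, and a lone array was assumed to vary like the other group. The member median was 0.62 without the filter, 0.61 with the filter at the 60th percentile, 0.46 with the mean of all probe sets, 0.47 with every probe set as a unit, 0.62 after centring on array medians and 0.52 after centring on the median of the tested genes, an alternative chosen after seeing the data; the cause was not tested. Other pathway genes called were 0 with the 60th percentile filter or the mean of all probe sets, and 1 with every probe set as a unit, quantile normalization or centring on the tested genes. All genes called were 90 with the 60th percentile filter, 104 with probe sets of plain _at suffix only and 245 with a robust prior. With every probe set as a unit 1 member fell, Xaf1, through its second probe set, and Irf9, Dhx58 and Parp14 lost their calls (adjusted p = 0.0529, 0.0516 and 0.0581 in limma), which left 9 of the 12. With the mean of all probe sets Xaf1 differed by −0.39, Parp14 lost its call and Dhx58 fell under the filter. The labels do not say whether samples of the same number belong together. Deviations of same-numbered samples correlated at 0.13 across probe sets and those of differently numbered samples at −0.13. With 2 arrays a group these 2 values are opposite by construction, so they cannot settle it. With the sample number as a replicate block 19 members, 7 other pathway genes and 821 genes in all were called. Parp14 lost its call under 6 of the alternatives that kept all arrays, with adjusted p-values in limma between 0.0506 and 0.0721.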
